A study of Mus musculus with 35 samples.

Results

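Globin, heme and iron transcripts were followed in mouse interscapular brown adipose tissue (iBAT) during a time course of cold. The set holds 10 genes of the 55421 gene identifiers counted, chosen by name: the adult α-globin genes Hba-a1 and Hba-a2, the adult β-globin genes Hbb-bs and Hbb-bt, the erythroid heme synthesis gene Alas2, the heme synthesis genes Alas1, Cpox and Fech, the iron uptake receptor Tfrc and the ferritin heavy chain Fth1. The first 5 of these, the globins and Alas2, are genes of red cells and their precursors and were read as a measure of blood in the tissue. The remaining 5 are used by most cells, brown adipocytes included. All 35 libraries were used: 5 male wild type C57BL/6J mice, 9 to 10 weeks old, in each of 7 groups, namely room temperature controls and mice kept at 6 °C for 6 hours or for 1, 2, 3, 4 or 5 days. Controls stayed at the 24 °C of the colony, whereas mice in the cold were caged singly without nesting material, so that housing and temperature cannot be told apart. Each library came from the whole iBAT pad of 1 mouse after white fat was trimmed away. No perfusion is described, so blood held in the pad was sequenced with it.

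Heme is made in a chain of steps that begins and ends in mitochondria. ALAS makes the first product from glycine and succinyl-CoA and sets the rate, CPOX carries out a late oxidation, and ferrochelatase, the product of Fech, inserts the iron. Most cells use the ALAS1 enzyme for their cytochromes, while red cell precursors use ALAS2 for hemoglobin, a protein built of α- and β-globin chains that each hold a heme. Iron enters cells on transferrin through the transferrin receptor encoded by Tfrc, and what is not used is stored in ferritin shells of heavy (Fth1) and light (Ftl1) chains. Brown fat is rich in mitochondria and therefore in heme proteins. Mature red cells of mice carry no nucleus but keep globin and Alas2 messenger RNA while they are young.

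Alas2, Tfrc and Fth1 are also tied together by sequence. Their messages carry iron-responsive elements, short hairpins with a bulged C and a loop that begins CAGTG, to which iron regulatory proteins bind when iron is scarce. In a 5′ untranslated region such a hairpin holds back translation, and in the 3′ untranslated region of Tfrc it protects the message from decay. The hairpins were searched for in the GRCm38 genome at the untranslated regions of the GENCODE annotation, asking for the bulged C, 5 pairs in the upper stem, the loop CAGTGN and at least 4 of 5 pairs in the lower stem. They are shown because they set the iron genes Tfrc and Fth1, whose levels are given below, side by side: their hairpins lie at opposite ends of the message. Each is printed 5′ to 3′ on the gene's strand, and capitals mark the loop.
Alas2 5′ hairpin, chrX:150547459-150547485, plus strand: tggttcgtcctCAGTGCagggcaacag
Fth1 5′ hairpin, chr19:9982733-9982759, plus strand: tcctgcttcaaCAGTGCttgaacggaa
Tfrc 3′ hairpin, chr16:32631220-32631246, plus strand: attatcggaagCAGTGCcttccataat
Tfrc 3′ hairpin, chr16:32631599-32631625, plus strand: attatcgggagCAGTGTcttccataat
Tfrc 3′ hairpin, chr16:32631664-32631690, plus strand: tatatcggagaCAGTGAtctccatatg
Tfrc 3′ hairpin, chr16:32631711-32631737, plus strand: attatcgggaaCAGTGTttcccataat
The same search found a hairpin in the 5′ untranslated region of 6 of 19641 genes (0.0305%) and in the 3′ untranslated region of 9 of 20545 genes (0.0438%). Tfrc was the 1 gene of those 20545 with at least 2, and it had 4. No hairpin of this form was found in the globins, Alas1 or Cpox. A match describes the letters, and binding was not measured here.

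Libraries were made from the 3′ ends of polyadenylated RNA and held 3846016 to 6047247 counted reads each, with a median of 4902083. Mitochondrial transcripts took 40.2% of all counts and the 4 globins 0.277%, with 0.169% to 0.455% in single libraries. Levels are given below in CPM, read counts scaled to a common library size with TMM factors. Single-library counts ran from 4423 to 17123 for Hbb-bs, 467 to 1466 for Alas1, 66 to 468 for Tfrc, 34 to 126 for Alas2 and 13 to 67 for Cpox, which made Cpox and Alas2 the least precisely measured members. Brown adipocyte markers summed to between 12221 and 24845 CPM in every library and skeletal muscle markers to between 6.30 and 954 CPM. Proliferation markers summed to 5.01 to 7.98 CPM in controls and 11.8 to 63.6 CPM at 3 to 5 days. Libraries of the same group differed from each other by more than sampling noise in every pair. The controls are shared by all 6 comparisons with room temperature, so these comparisons are not independent of one another. With library size alone in place of TMM factors, the median gene's log2 fold change moved from between -0.027 and -0.0073 to between -0.25 and -0.15 over the 6 durations, and the changes below are therefore changes relative to the median gene. In bulk tissue, fewer cells of a type and less RNA per cell cannot be told apart.

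Over the 7 groups together, 6 of the 10 members differed by the F test, namely Hbb-bs, Hbb-bt, Alas1, Cpox, Tfrc and Fth1, where 59.8% of the 12077 genes tested did. Hba-a1 (adjusted p = 0.147), Hba-a2 (0.175), Alas2 (0.254) and Fech (0.0657) did not pass. Each pattern is taken up in turn below, blood genes first.

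**Figure D1:**
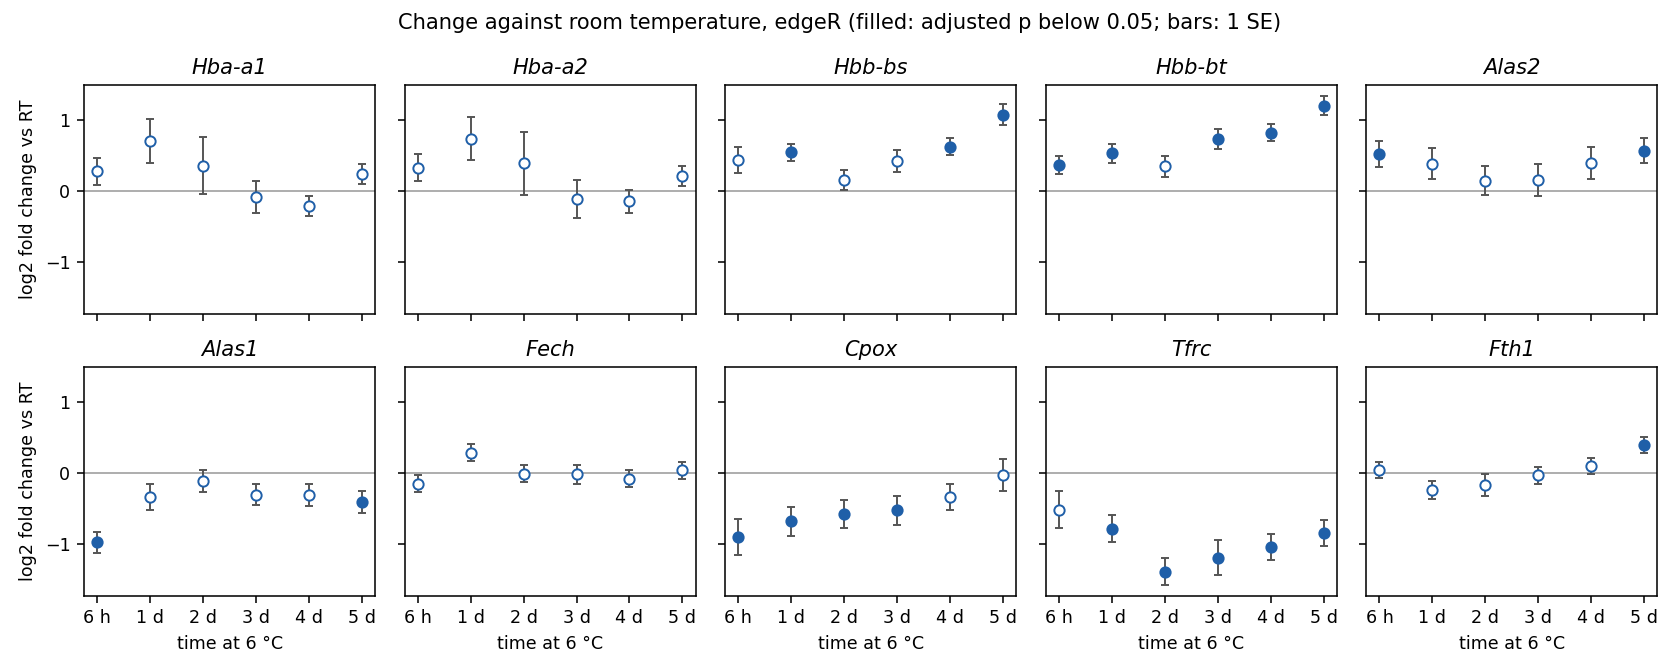
Log2 fold change against room temperature (y axis) by time at 6 °C (x axis) for each of the 10 members, from edgeR fits of 5 against 5 mice; bars are 1 SE and filled points have an adjusted p below 0.05. The β-globins rise to 1.08 and 1.20 at 5 days while the α-globins stay unfilled throughout, Alas1 and Cpox are lowest at 6 hours, and Tfrc is lowest at 2 days.

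The β-globin genes rose late in the cold and were highest at 5 days, by 2.11-fold for Hbb-bs and 2.30-fold for Hbb-bt. The gene Hbb-bs lies at chr7:103826534-103828096 and Hbb-bt at chr7:103812524-103813996, both on the minus strand. In the 5 controls the level of Hbb-bs was 1021, 1128, 1450, 1255 and 991 CPM. At 5 days it was 1699, 2486, 2526, 3352 and 2290 CPM, so that every mouse lay above every control. The log2 fold change of Hbb-bs was 1.08 (SE 0.15, adjusted p = 1.10e-05), and it stayed between 0.95 and 1.19 when any 1 library was left out.

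On the way there the level of Hbb-bs did not climb steadily. At 6 hours it was 1226, 1393, 2412, 1726 and 1273 CPM, and at 1 day 1339, 1939, 1625, 1946 and 1670 CPM. The 1 day mice were higher than controls (log2 fold change 0.54, SE 0.13, adjusted p = 0.00191), and the 6 hour mice missed the threshold (0.44, SE 0.18, adjusted p = 0.0678), although they passed with DESeq2 (adjusted p = 0.0251), with all 7 groups in 1 fit (0.0452) and without control replicate 3 or 6 hour replicate 1. At 2 days the values were 1410, 1025, 1358, 1171 and 1578 CPM and overlapped with the controls in 4 of 5 mice. At 3 days they were 1216, 2187, 1177, 1465 and 1728 CPM, with 3 mice above every control (0.42, SE 0.16, adjusted p = 0.0504). That difference passed with DESeq2 (adjusted p = 0.0367), without a filter, without mitochondrial rows, and without control replicate 3 or replicate 1 or 3 of 3 days. At 4 days they were 1795, 1369, 2089, 1798 and 1986 CPM, and the difference passed again (0.63, SE 0.12, adjusted p = 0.000324). Compared directly, 5 days exceeded 6 hours by 0.64 (SE 0.21, adjusted p = 0.0347). That call was lost without replicate 1, 2, 4 or 5 of 6 hours or replicate 2, 3 or 4 of 5 days, where the difference was 0.51 to 0.66, and without a filter (0.64, adjusted p = 0.101).

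Hbb-bt followed a similar course at a lower count, with a larger difference from controls than Hbb-bs at 3 days (0.73 against 0.42). Its mean was 203 ± 20.1 CPM (SD, n = 5) in controls and 470 ± 108 CPM (SD, n = 5) at 5 days, where the values were 309, 539, 502, 583 and 417 CPM. No 5 day mouse overlapped with the controls, whose highest value was 234 CPM. The difference was 1.20 (SE 0.14, adjusted p = 5.48e-07) at 5 days, 0.82 (SE 0.12, adjusted p = 1.56e-05) at 4 days and 0.73 (SE 0.14, adjusted p = 0.000571) at 3 days. Hbb-bt was higher than controls in 5 of the 6 comparisons, all but 2 days, and Hbb-bs in 3. Its early call at 6 hours (0.37, SE 0.13, adjusted p = 0.0247) was lost with library size alone, with all 7 groups in 1 fit, and without replicate 1 or 5 of the controls or replicate 3 or 4 of the 6 hour mice (0.24 to 0.35). Its 1 day call (0.53, SE 0.13, adjusted p = 0.00344) was lost with library size alone (0.32, adjusted p = 0.0656).

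The α-globin genes, in contrast, passed the test at no duration. Hba-a1 (chr11:32283511-32284465) and Hba-a2 (chr11:32296489-32297298) lie next to each other on the plus strand. In controls the level of Hba-a1 was 362, 462, 295, 505 and 380 CPM. At 5 days it was 411, 491, 402, 612 and 452 CPM, and 1 of the 5 mice lay above the highest control. The log2 fold change was 0.23 (SE 0.14, 95% interval -0.042 to 0.51, adjusted p = 0.201) for Hba-a1 and 0.21 (SE 0.14, 95% interval -0.071 to 0.49, adjusted p = 0.263) for Hba-a2. At 4 days it was -0.21 (SE 0.14, adjusted p = 0.264) and -0.15 (SE 0.16, adjusted p = 0.503). At 6 hours it was 0.28 (SE 0.19, adjusted p = 0.272) and 0.33 (SE 0.19, adjusted p = 0.186). The 6 hour difference of Hba-a2 passed without a filter (0.34, adjusted p = 0.0474) and without 6 hour replicate 2 (0.44, adjusted p = 0.0495). With library size alone the 5 day values were -0.0013 and -0.029, and at 4 days Hba-a1 was then lower by the test (-0.35, adjusted p = 0.0366).

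A pair of mice carried far more α-globin RNA than the rest. Replicate 4 of the 1 day group had 1252 CPM of Hba-a1 and 885 CPM of Hba-a2, and replicate 1 of the 2 day group had 1173 and 871 CPM. In the other 4 mice of the 1 day group Hba-a1 was 530, 431, 546 and 513 CPM, and in the other 4 of the 2 day group 293, 419, 359 and 339 CPM. The 1 day log2 fold change of Hba-a1 was 0.70 (SE 0.31, adjusted p = 0.105) and fell to 0.34 without replicate 4. For Hba-a2 it was 0.74 (adjusted p = 0.0929) and 0.37 without that mouse, where it passed the test (adjusted p = 0.0378). At 2 days the difference of Hba-a1 turned from 0.36 to -0.20 and that of Hba-a2 from 0.39 to -0.24 without replicate 1. Hbb-bs was 1946 and 1410 CPM in these mice, the highest of the 1 day group and the second highest at 2 days. Hbb-bt was 394 and 380 CPM in them, the highest of each group.

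**Figure D2:**
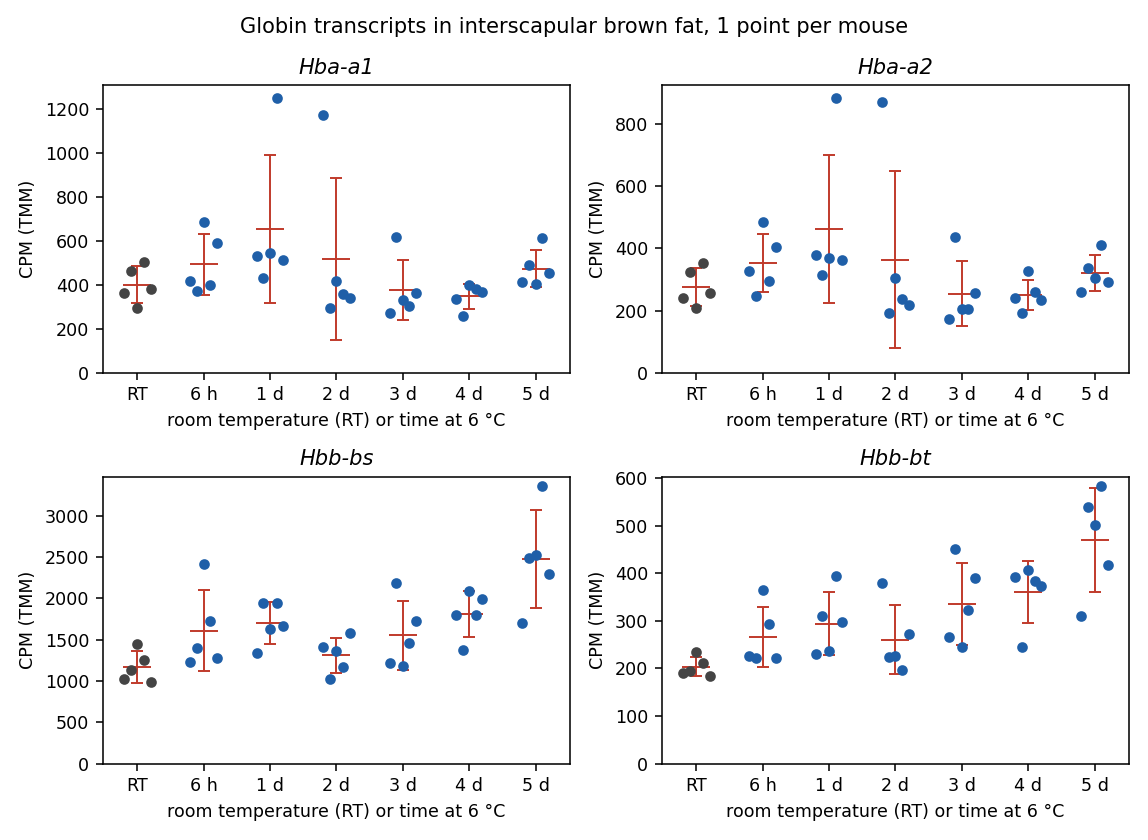
Level of each globin gene (y axis, CPM after TMM scaling) by group (x axis), 1 point per mouse; red marks are the group mean and 1 SD, n = 5. All 5 mice at 5 days lie above the controls for Hbb-bs and Hbb-bt, while Hba-a1 and Hba-a2 lie above the controls in 4 of 5 mice at 1 day, in 2 at 6 hours and in 1 each at 2, 3 and 5 days.

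The ratio of β- to α-globin counts within a library is free of scaling between libraries, and it was above most or all controls at 4 and 5 days. Controls had 2.01, 1.68, 3.36, 1.71 and 1.85 β-globin counts per α-globin count. At 4 days the ratio was 3.81, 3.60, 3.45, 3.39 and 3.93, and at 5 days it was 2.99, 3.66, 4.28, 3.85 and 3.63. All 5 mice at 4 days and 4 of 5 at 5 days thus exceeded the highest control, which itself stood apart from the other 4 controls. The ratio lay between 1.50 and 2.90 at 6 hours, and it was 3.36, 2.51, 2.65, 3.52 and 3.42 at 3 days. The mice with high α-globin had the lowest ratios of all 35, 1.10 at 1 day and 0.876 at 2 days. No test was run on this ratio, and since reads of different genes are captured with different efficiency its size says nothing of the number of chains. The ratio within each pair was narrower, 0.622 to 0.821 Hba-a2 counts per Hba-a1 count and 0.146 to 0.270 Hbb-bt counts per Hbb-bs count. The β-globin pair was not constant, with 0.162 to 0.187 in controls and 0.206 to 0.226 at 3 days, without overlap. It was 0.179 to 0.218 at 4 days and 0.174 to 0.217 at 5 days, and this was not tested either.

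**Figure D3:**
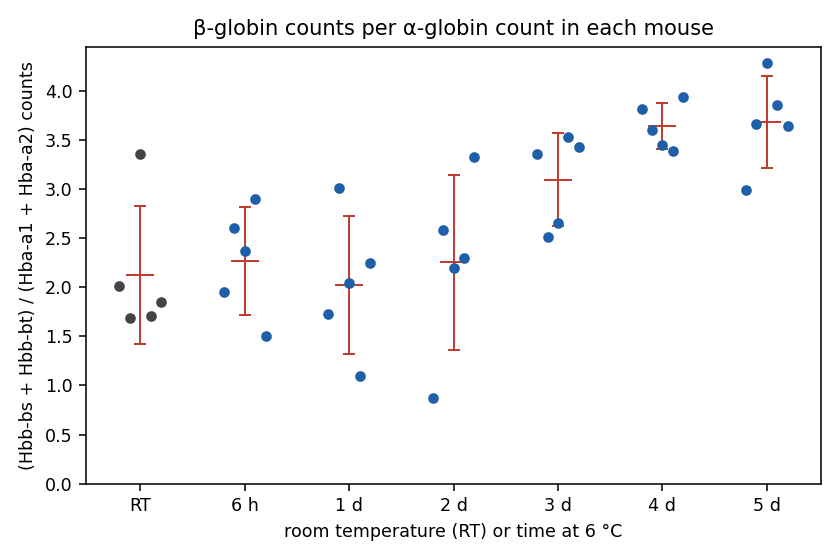
Counts of Hbb-bs and Hbb-bt together per count of Hba-a1 and Hba-a2 together (y axis) by group (x axis), 1 point per mouse; red marks are the mean and 1 SD, n = 5. The 4 and 5 day mice lie between 2.99 and 4.28, above 4 of the 5 controls, and the lowest points, 1.10 and 0.876, are the mice with the most α-globin.

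How far the paralogs can be told apart limits these values. Of the 76-base windows in the last 300 bases of the transcript, the read length and region that 3′ libraries sample, 66.2% in Hba-a1 and 59.1% in Hba-a2 were identical in the other α-globin gene. For the β-globins the shares were 29.3% for Hbb-bs and 28.9% for Hbb-bt, each with the other as the one partner. No window was shared between α- and β-globin or by any of the other 6 members with another gene. How reads that match several genes were treated is not given in the sources used here. The levels of the 2 genes of a pair, above all the α pair, are therefore uncertain singly. The embryonic globins Hba-x, Hbb-y, Hbb-bh1 and Hbb-bh2 together had 1 count in all 35 libraries.

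Alas2 (chrX:150547375-150570638, plus strand), the erythroid enzyme of the first heme step, was higher at 6 hours and at 5 days. Its level in controls was 13.1, 15.1, 10.4, 12.0 and 8.35 CPM. At 6 hours it was 15.4, 11.3, 22.6, 17.2 and 19.1 CPM and at 5 days 12.7, 21.3, 16.1, 20.2 and 17.7 CPM, with 4 of 5 mice above every control both times. Both differences passed the test, with log2 fold changes of 0.52 (SE 0.18, adjusted p = 0.0244) and 0.57 (SE 0.18, adjusted p = 0.0131). Neither call held with library size alone (0.33 at both times, adjusted p = 0.134 and 0.128) or with all 7 groups in 1 fit, and the 6 hour call also failed without replicate 5 of the controls or replicate 3 or 5 of the 6 hour mice. With the level of Hbb-bs added to the fits as a covariate both calls were also lost, at 0.34 (adjusted p = 0.259) and 0.045 (adjusted p = 0.967). Hbb-bs itself separates the groups at 5 days, so this fit cannot decide whether Alas2 rose apart from it. Over all genes it called 3523 at 6 hours and 659 at 5 days, against 4539 and 4148 without the covariate. At 1 to 4 days the differences of 0.14 to 0.39 did not pass, except at 4 days without 4 day replicate 2 (0.56, adjusted p = 0.0299). Alas2 shares exons with Apex2 on the opposite strand, and the strand setting of the counting is not given in the sources used here.

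Across mice, Alas2 tracked both kinds of globin. Where 1 adjusted p follows a pair of r and rho here or below, it is that of r, and that of rho lay on the same side of the threshold. Over the 35 mice its level correlated with Hbb-bs at Pearson's r = 0.661 (Spearman's rho = 0.653, permutation adjusted p = 0.000180 over 9 relations), and at 0.664 once the 2 mice with the most extreme Hbb-bs were dropped. After each duration's mean was removed, r was 0.636 (rho = 0.641, permutation adjusted p = 0.000945). Hbb-bs and Hbb-bt correlated at r = 0.910 (rho = 0.911) over all mice and 0.870 within durations, both with a permutation adjusted p of 9.0e-05, the smallest that 100000 permutations could give over 9 relations. Hbb-bs and Hba-a1 correlated more weakly, at r = 0.336 (rho = 0.385, permutation adjusted p = 0.0876 for r and 0.0418 for rho) over all mice and 0.460 (rho = 0.402, adjusted p = 0.0131) within durations. With Hba-a2 the values were 0.348 (rho = 0.392, adjusted p = 0.0876 for r and 0.0418 for rho) and 0.481 (rho = 0.467, adjusted p = 0.0103). When the 2 mice highest in Hba-a1 were left out, an alternative chosen after seeing the data, the relations over all mice were 0.455 and 0.469.

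In 6 further pairs, chosen after the values were seen, Hba-a1 and Hba-a2 correlated at r = 0.986 over the 35 mice (rho = 0.975). Alas2 correlated with Hba-a1 at 0.641, with Hba-a2 at 0.670 and with Hbb-bt at 0.637, and within durations at 0.706, 0.729 and 0.730. All of these, like Hba-a1 with Hba-a2, passed the permutation test adjusted over the 6 pairs (highest adjusted p = 0.000150). Hba-a1 and Hbb-bt gave 0.330 over all mice (rho = 0.262, permutation adjusted p = 0.0521) and 0.652 within durations (rho = 0.521, permutation adjusted p = 0.000330). Mice within a duration thus ranked alike in Hba-a1 and Hbb-bt more than the 35 mice did as a whole, a comparison of 2 correlations that was not tested. For Hbb-bs the rho values over all mice and within durations lay closer, 0.385 and 0.402 with Hba-a1 and 0.392 and 0.467 with Hba-a2.

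Other genes of red cell precursors were close to the limit of detection. Of 14 erythroid markers matched, 2 had enough counts to be tested, among them Bpgm, which other cells also make. The membrane protein Slc4a1 had 113 counts in all 35 libraries together. The erythroid transcription factors Gata1 and Klf1 had 7 and 6 and were at 0 in 32 and 30 of the libraries. Summed over the list, the level was 14.7 to 24.5 CPM in controls and 14.1 to 22.9 CPM at 5 days, where β-globin had no overlap. Bpgm was lower at 2 days (log2 fold change -0.55, SE 0.18, adjusted p = 0.0249). Of the 5 platelet markers, Pf4, which tissue macrophages also make, was higher at every duration from 1 day, by 0.66 to 1.26, and held 3839 counts over all libraries. The others held 280 (Itga2b), 174 (Ppbp), 12 (Gp9) and 5 (Gp1bb), and Itga2b, tested at 4 and 5 days, did not pass (0.060 and -0.15). Endothelial markers summed to 241 to 300 CPM in controls, 485 to 574 CPM at 1 day and 225 to 373 CPM at 5 days, and macrophage markers to 64.6 to 165 CPM in controls and 97.5 to 204 CPM at 5 days. The part of any of these in the globin levels was not tested.

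Counted over the 10 members, 2 were higher and 2 lower at 6 hours, against a background of 21.8% of genes higher and 21.1% lower. At 1 day it was again 2 and 2 (background 18.9% and 17.8%), at 2 days 0 and 2 (16.4% and 14.6%), and at 3 days 1 and 2 (18.4% and 15.5%). At 4 days 2 were higher and 1 lower (19.2% and 18.8%), and at 5 days 4 were higher and 2 lower (20.2% and 18.4%). These shares lie near the background at most durations, so the count of calls is not what sets these genes apart. The median log2 fold change of the 10 was 0.16 at 6 hours, 0.34 at 1 day, 0.067 at 2 days, -0.057 at 3 days, -0.11 at 4 days and 0.22 at 5 days, where the median of all genes tested lay between -0.027 and -0.0073.

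Alas1, the first enzyme of heme synthesis outside red cells, fell to a 0.509-fold level within 6 hours and was higher again by 1 day. Alas1 lies at chr9:106233455-106248654 on the minus strand. In controls its level was 134, 242, 287, 241 and 228 CPM. At 6 hours it was 122, 114, 129, 113 and 106 CPM, and every mouse lay below every control. The log2 fold change was -0.97 (SE 0.15, adjusted p = 5.94e-05), and it stayed between -1.11 and -0.87 with any 1 library left out. The 6 hour mice were closely alike, 117 ± 8.79 CPM (SD, n = 5), against 226 ± 56.4 CPM (SD, n = 5) in controls, whose lowest value came from replicate 1.

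At 1 day Alas1 was 168, 219, 163, 133 and 210 CPM. Every one of these mice exceeded all 5 mice of 6 hours, and the direct comparison gave 0.62 (SE 0.12, adjusted p = 0.00104). At 5 days the level was 166, 166, 147, 180 and 193 CPM, again above all 6 hour mice (0.56, SE 0.10, adjusted p = 7.63e-05). Against controls the 5 day difference was -0.41 (SE 0.15, adjusted p = 0.0413), with no mouse below the lowest control, and the call was lost on leaving out any 1 library other than control replicate 1 or 5 day replicate 5 (-0.42 to -0.32). At 1, 2, 3 and 4 days the differences of -0.34, -0.11, -0.31 and -0.31 did not pass. At 1, 3 and 4 days they passed with library size alone, without a filter or without control replicate 1, and at 2 days under none of these. Alas1 shares an exon with 4930500F10Rik on the opposite strand.

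Cpox (chr16:58670292-58717636, plus strand), the coproporphyrinogen oxidase, was also lowest at 6 hours. The controls had 9.65, 8.35, 6.53, 7.56 and 8.89 CPM and the 6 hour mice 3.40, 3.93, 3.13, 3.30 and 7.96 CPM. In 4 of 5 mice the level was below every control, and replicate 5 lay within the controls. The log2 fold change was -0.90 (SE 0.25, adjusted p = 0.00551). It was -0.68 (SE 0.20, adjusted p = 0.0129) at 1 day, -0.58 (SE 0.20, adjusted p = 0.0322) at 2 days and -0.53 (SE 0.20, adjusted p = 0.0481) at 3 days, the 2 day call being lost in 6 and the 3 day call in 8 of the 10 fits that left out 1 library, control replicates 1, 2 and 5 among them both times. At 5 days the difference was -0.028 (SE 0.23, adjusted p = 0.934), and directly against 6 hours it was 0.88 (SE 0.29, adjusted p = 0.0186). Replicate 4 of the 5 day group had 13.1 CPM, and without it the direct difference was 0.63 (adjusted p = 0.106). That call also failed without replicate 3 or 4 of the 6 hour mice, at 0.77 and 0.79. Cpox rested on 13 to 67 reads per library and shares exons with Gpr15 on the opposite strand.

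Fech (chromosome 18, 64452914 to 64490251, minus strand), which encodes ferrochelatase, differed from controls at no duration by the test, though with library size alone it was lower at 6 hours (-0.35, adjusted p = 0.0177). Its mean was 48.3 ± 6.67 CPM (SD, n = 5) in controls, 44.0 ± 6.25 CPM at 6 hours, 58.8 ± 5.71 CPM at 1 day and 49.6 ± 5.94 CPM at 5 days. The widest difference from controls was 0.29 at 1 day (SE 0.11, 95% interval 0.062 to 0.51, adjusted p = 0.0558), which passed without replicate 1 or 3 of the controls or replicate 4 or 5 of the 1 day mice. From 6 hours to 1 day it was higher by 0.43 (SE 0.12, adjusted p = 0.0138), with 3 of 5 mice above all 6 hour mice. In that comparison Alas1 and Fech were the 2 members higher and none was lower, where 9.24% of genes were higher and 7.90% lower. From 6 hours to 5 days, Hbb-bs, Hbb-bt, Alas1, Cpox and Fth1 were higher and none lower, against 19.2% and 17.0%.

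**Figure D4:**
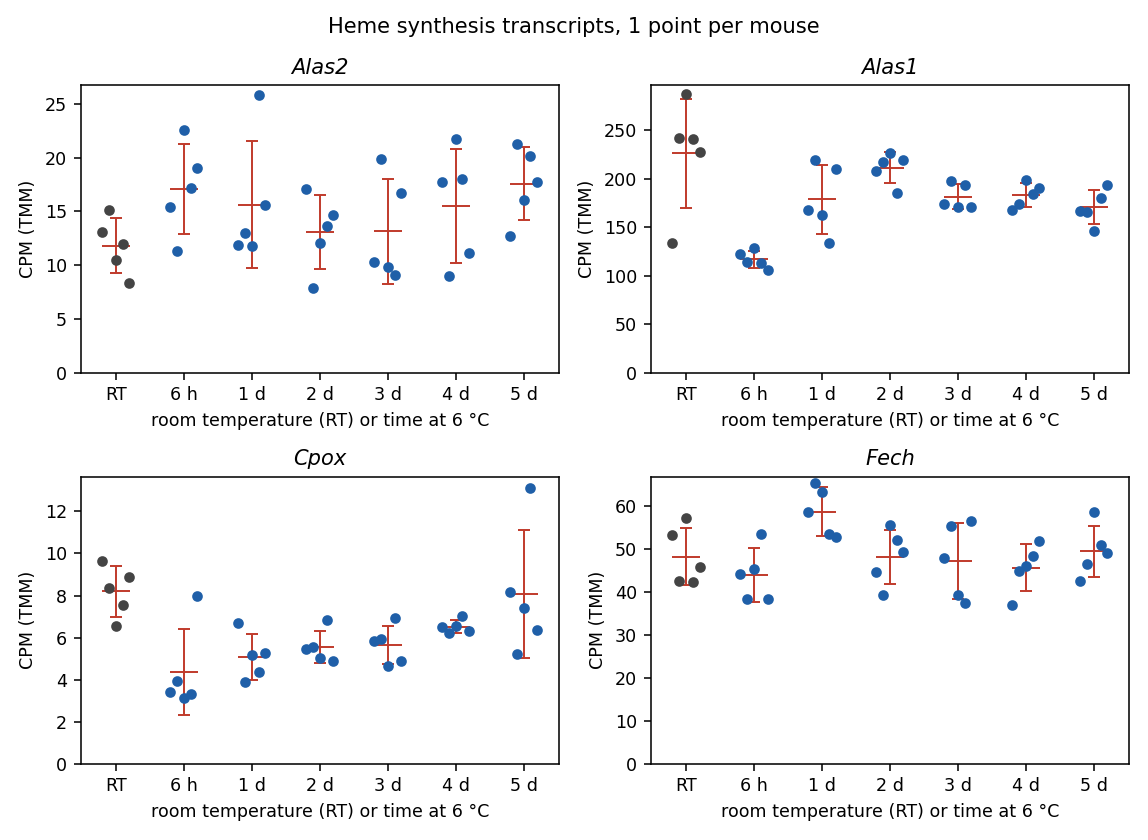
Level of 4 heme synthesis genes (y axis, CPM after TMM scaling) by group (x axis), 1 point per mouse; red marks are the mean and 1 SD, n = 5. Alas1 drops to 106 to 129 CPM at 6 hours below all controls, Cpox is lowest at 6 hours in 4 of 5 mice, and the group means of Fech lie between 44.0 and 58.8 CPM.

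Other heme synthesis enzymes moved at different times. Alad, the step after ALAS, fell by 1.08 on the log2 scale at 6 hours (SE 0.15, adjusted p = 5.45e-06) and was within 0.14 of controls at all later durations. Urod, which makes coproporphyrinogen, fell by 0.51 at 6 hours (SE 0.12, adjusted p = 0.00172). Uros, which closes the tetrapyrrole ring, was higher at 2, 3 and 5 days, by 0.86, 0.75 and 0.80, and did not pass at 6 hours (-0.39), 1 day (0.40) or 4 days (0.45). Ppox, which acts after Cpox, passed at no duration, with differences between -0.49 and -0.32.

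Tfrc, which brings transferrin-bound iron into cells, was the most lowered member and stayed low to the end of the course. Tfrc lies at chr16:32608920-32632794 on the plus strand. In controls its level was 44.8, 38.0, 71.6, 77.0 and 63.9 CPM. At 2 days it was 22.0, 27.8, 25.3, 17.3 and 20.5 CPM, all below every control. The log2 fold change was -1.39 (SE 0.19, adjusted p = 5.37e-05), a 0.382-fold level, and it ranged from -1.52 to -1.28 with any 1 library left out.

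Tfrc was lower than controls from 1 day on. Its difference from controls was widest at 2 days and smaller at 3 to 5 days, but 2 days was not compared directly with these. At 6 hours its level was 67.0, 39.7, 36.7, 28.7 and 38.2 CPM, where replicate 1 lay far above the other 4 mice. The 6 hour difference was -0.52 (SE 0.26, adjusted p = 0.144), and without that mouse it was -0.73 and passed (adjusted p = 0.0101). At 1 day it was 33.4, 32.6, 26.8, 33.8 and 45.4 CPM, 4 of 5 below every control (-0.79, SE 0.19, adjusted p = 0.00490). At 3 days the difference was -1.19 (SE 0.24, adjusted p = 0.00317) and at 4 days -1.04 (SE 0.19, adjusted p = 0.000541). At 5 days the mice had 26.6, 34.9, 28.5, 37.6 and 37.0 CPM, still all below the lowest control of 38.0 CPM (-0.85, SE 0.18, adjusted p = 0.00156). Between 6 hours and 5 days the difference of -0.33 (SE 0.18, adjusted p = 0.168) did not pass, except without 6 hour replicate 4 (-0.44, adjusted p = 0.0462). No alternative setting turned its direction in any comparison, and no call from 1 day onward was lost with 1 library left out.

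Fth1, the ferritin heavy chain, was higher at 5 days only among the comparisons with controls. Fth1 lies at chr19:9980598-9985098 on the plus strand. Its level was 815, 691, 1026, 712 and 707 CPM in controls and 856, 1100, 1124, 1049 and 1059 CPM at 5 days. The log2 fold change was 0.39 (SE 0.12, adjusted p = 0.00969), with 4 of 5 mice above every control and replicate 1 within them. With library size alone it was 0.15 and did not pass (adjusted p = 0.249). At the other durations it was between -0.24 and 0.096 and did not pass, and with library size alone Fth1 was lower by the test at 1 day (-0.47, adjusted p = 0.00319) and 2 days (-0.42, adjusted p = 0.0138). Between 6 hours and 5 days it rose by 0.35 (SE 0.11, adjusted p = 0.0133), a call lost with all 7 groups in 1 fit (0.33, adjusted p = 0.0521) and with Hbb-bs as covariate (0.12, adjusted p = 0.561).

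**Figure D5:**
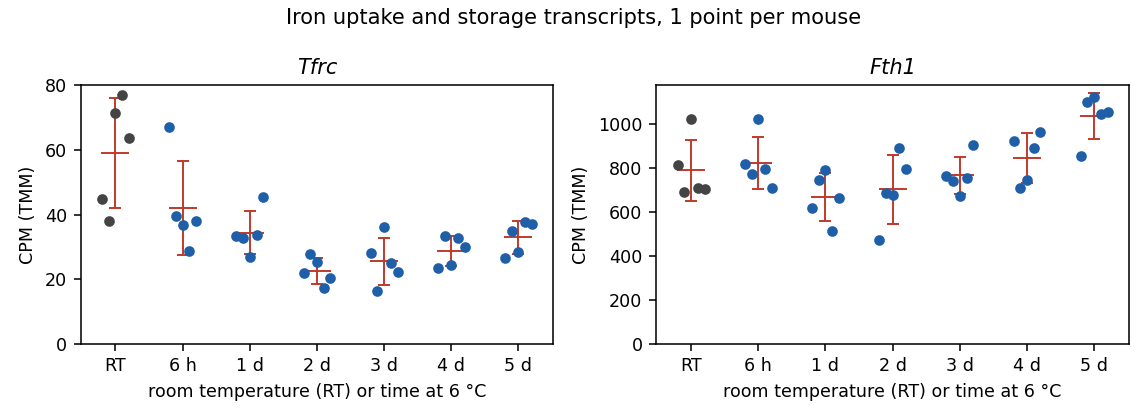
Level of Tfrc and Fth1 (y axis, CPM after TMM scaling) by group (x axis), 1 point per mouse; red marks are the mean and 1 SD, n = 5. All mice at 2, 3, 4 and 5 days have less Tfrc than the lowest control, and Fth1 is above all controls in 4 of 5 mice at 5 days.

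The 5 genes of the tissue side were also set against Hbb-bs between mice. Fth1 correlated with Hbb-bs over the 35 mice (r = 0.517, rho = 0.529, permutation adjusted p = 0.00438), but within durations r was 0.345 (rho = 0.359, permutation adjusted p = 0.0556), and with the 2 mice most extreme in Hbb-bs dropped it was 0.407 (permutation adjusted p = 0.0553). Fech gave 0.311 over all mice (rho = 0.313, permutation adjusted p = 0.103) and 0.456 within durations (rho = 0.515, permutation adjusted p = 0.0328). For Alas1 r was -0.116 over all mice (rho = -0.184, permutation adjusted p = 0.572) and 0.317 within durations (rho = 0.394, permutation adjusted p = 0.0556 for r and 0.0389 for rho). Cpox (r = -0.037, rho = -0.17) and Tfrc (r = -0.24, rho = -0.23) showed no relation that passed, over all mice or within durations. With Hbb-bs added to the fits as a covariate, the falls of Alas1 at 6 hours and of Tfrc at 2 days were still called, whereas those of Cpox at 6 hours (-0.53, adjusted p = 0.164) and 1 day (-0.090, adjusted p = 0.895) were not. Where Hbb-bs itself differs between the groups, as at 1 and 5 days, this fit has little left to compare. It called 1389 of 10654 genes at 1 day and 659 of 10729 at 5 days, against 3917 and 4148 without the covariate.

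Genes of iron transport were called in both directions. Of the 16 on the list 12 or 13 were tested, and 1 to 4 were higher and 2 to 5 lower at each duration. Of all genes tested, 16.4% to 21.8% were higher and 14.6% to 21.1% lower, and whether the list differs from that background was not tested. Steap4, a metalloreductase, was lower at all 6 durations, by 0.49 to 1.55 on the log2 scale. Heph, an iron-oxidizing partner of iron export, was lower in 5, by 1.05 to 1.55, and Lrp1, a receptor that also takes up heme bound to hemopexin, in 5, by 0.50 to 1.10. Slc25a28, a mitochondrial iron importer, was higher from 1 day on, by 0.71 to 1.46. The median log2 fold change of the tested genes was -0.40 at 6 hours and between 0.088 and 0.33 later.

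Among 10 iron storage and sensing genes, 8 were tested. Aco1, which encodes the cytosolic aconitase that turns into iron regulatory protein when it loses its cluster, was lower at all 6 durations, from -1.15 at 6 hours (SE 0.12, adjusted p = 1.11e-07) to -0.32 at 5 days (SE 0.12, adjusted p = 0.0408). Ftl1, the ferritin light chain, was higher at 5 of 6 durations, by 1.12 to 1.95, and missed the test at 1 day (0.59, SE 0.44, adjusted p = 0.331). Ftl1 has near-identical retrocopies in the mouse genome, which makes its level uncertain. Pcbp2, an iron chaperone, was lower from 2 days on, by 0.36 to 0.48. Ncoa4, the receptor for ferritin breakdown, was higher at 6 hours (0.47, SE 0.17, adjusted p = 0.0326). On this list 0 to 2 genes were higher and 1 or 2 lower at each duration. The background was again 16.4% to 21.8% of all genes higher and 14.6% to 21.1% lower, and a difference from it was not tested.

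Genes of heme transport and breakdown were called in both directions. Of the 14 listed, 11 or 12 were tested, 2 or 3 were higher and 5 or 6 lower at each duration, where 14.6% to 21.1% of all genes were lower and 16.4% to 21.8% higher. Flvcr1, a heme exporter, was lower at all 6, by 1.14 to 1.48, as were Blvrb, which reduces biliverdin and other substrates, by 0.68 to 1.97, and Abcb10, a mitochondrial transporter tied to heme synthesis, by 0.61 to 0.95. Slc25a39, a mitochondrial carrier needed for glutathione import, was higher at all 6, by 0.72 to 1.38. Hmox1, which breaks heme open, was named after its values were seen: the 6 hour mice had 71 to 145 counts and the controls 3 to 8 (log2 fold change 4.42, SE 0.30, adjusted p = 3.01e-10). At 4 and 5 days Hmox1 was higher by 2.75 and 2.42, and at 1, 2 and 3 days it had too few counts to be tested.

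Of 7 nuclear genes for mitochondrial heme proteins and their heme handling, 4 to 6 were higher and none lower than controls at each duration, where 16.4% to 21.8% of all genes were higher, with medians of 0.42 to 0.83. From 6 hours to 5 days 4 were higher and 1 lower, Hccs (-0.87). Cycs, which encodes cytochrome c, was higher at all 6 by 0.64 to 0.92, Hccs, which attaches its heme, by 0.41 to 1.43, and Cox10, which begins heme A synthesis, by 0.29 to 0.83. Cox15, the next step, was higher in 5, by 0.74 to 1.22. Of 16 iron-sulfur assembly genes 15 were tested, 1 to 6 were higher and 0 to 3 lower, where 14.6% to 21.1% of all genes were lower. Hspa9, the mitochondrial chaperone, was higher at all 6 durations by 0.41 to 0.71, while Iscu, the scaffold, was lower at 1 day (-0.85) and 2 days (-0.76).

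Of 10 regulators, 3 to 5 were higher and 2 or 3 lower at each duration. Among all genes tested 16.4% to 21.8% were higher and 14.6% to 21.1% lower. Ppargc1a, a coactivator of mitochondrial genes and of Alas1, was higher at all 6, most at 6 hours (3.62, SE 0.28, adjusted p = 6.39e-06), the time at which Alas1 was lowest. Nr1d2, a heme-binding repressor of the clock, was lower at all 6, by 0.66 to 1.49. Epas1 and Hif1a, the oxygen-regulated factors, were higher in 5 each, by 0.52 to 0.89 and 0.48 to 0.68.

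As a description, the genes most like Hbb-bs, Alas1 and Tfrc over the 35 libraries were sought among 10638 genes that were no members. For Hbb-bs they were Atg12 (r = 0.817), Mrpl51 (0.764), Mtor (0.751), Mrpl40 (0.743) and Egln3 (0.711). For Alas1 they were Hist1h1e (0.802), Zfyve21, Ppm1k, Pdzd2 and Dpp3 (0.761 to 0.769), and for Tfrc Cdsn (0.780), Chn1, Tusc3, Lctl and Impdh1 (0.734 to 0.741). These points share their groups, and once each duration's mean was removed the values fell to 0.431 to 0.657, 0.228 to 0.433 and 0.119 to 0.431. Hbb-bs was closer to its fellow member Hbb-bt, at 0.910, than to any of the other genes.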

How the data were processed

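Whole iBAT RNA of 35 mice was sequenced from its 3′ ends in reads of 76 bases. Per the labels, the authors aligned reads to GRCm38 with STAR 2.6.1d and counted them per gene with HTSeq 0.11.2. The deposited values were raw counts, with 5 mice in each of 7 groups, and no column lacked a sample. The strand setting and the handling of multi-mapped reads are not given in the sources used here.

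Each duration was compared with room temperature, and 1 and 5 days with 6 hours, by edgeR 4.0.16 in R 4.3.3. The fits used TMM factors, the filterByExpr filter and the robust quasi-likelihood test, with Benjamini-Hochberg adjustment over all genes tested and a threshold of 0.05. An F test covered all 7 groups in 1 fit. DESeq2 1.42.0 served as an alternative. Alternatives also covered scaling, filters, samples, a replicate block, Hbb-bs as a covariate and leaving out each library. Correlations between mice used log2 CPM with a prior count of 2 and 100000 two-sided permutations, which within durations exchanged mice of the same group only. The edgeR and DESeq2 steps were tested on simulated data. The members and lists were chosen with earlier results of these data known. Up to 4 genes per list were named, those called in most comparisons, Hmox1 excepted. P-values of the fits weigh a difference between groups against the spread among mice of a group. The permutations over all mice also exchanged mice of different groups. Some listed genes are not reported here.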

Additional observations from a re-analysis of the deposited data

Results flagged for a closer look

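Of 91 checks for a single far mouse, over 13 measures in 7 groups of 5, 11 found one, where chance gives about 1 in 20. The α-globins account for 5 of them. Hba-a1 stood apart at 1252 CPM in replicate 4 of 1 day, 1173 CPM in replicate 1 of 2 days and 616 CPM in replicate 2 of 3 days, and Hba-a2 at 885 and 871 CPM in the first 2 of these mice. Alas2, at 25.8 CPM, also stood apart in replicate 4 of 1 day. Hbb-bt was low in replicate 2 of 4 days, at 245 CPM. Cpox was high in replicate 5 of 6 hours, at 7.96 CPM, and Tfrc in replicate 1 of 6 hours, at 67.0 CPM. Fth1 was low in replicate 1 of 5 days, at 856 CPM. Control replicate 3 had a β- to α-globin ratio of 3.36, above the other controls.

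Durations of cold differed from each other in 7 direct tests by edgeR. From 6 hours to 1 day Alas1 was higher by 0.62 and Fech by 0.43 on the log2 scale. From 6 hours to 5 days the differences were 0.64 for Hbb-bs, 0.84 for Hbb-bt, 0.56 for Alas1, 0.88 for Cpox and 0.35 for Fth1.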

How the results depend on the processing

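Of 736 fold changes of members under alternatives other than leaving out a library, 665 kept their direction and their side of the threshold, 27 lost a call with their direction kept, 25 gained one and 19 turned sign, 1 of which (Fth1 at 5 days with Hbb-bs as covariate) was a call; RLE factors and the filter of 10 counts in 5 libraries changed no call. Where a result below changed, the cause was not tested. Precision was limited for Cpox, with 13 to 67 reads per library, and Alas2, with 34 to 126.

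Among Alas1, Fech, Cpox, Tfrc and Fth1, the number called moved by over 1.5 times as follows, smaller moves being left out. Against room temperature, with Hbb-bs as covariate it was 1 in place of 2 at 6 hours, 1 day and 2 days, 2 in place of 1 at 4 days and 1 in place of 3 at 5 days, and 1 in place of 3 between 6 hours and 5 days. With library size only it was 4 in place of 2 at 1 day and 2 in place of 1 at 4 days, and over all 10 members 5 in place of 3 at 4 days. Without a filter it was 1 in place of 2 at 2 days and 2 in place of 1 at 4 days. With 1 fit of all groups it was 1 in place of 2 at 2 days, also over all 10 members, and with DESeq2 1 in place of 2 at 3 days. Leaving out 1 library gave 2 to 4 at 1 day and 1 to 2 at 2, 3 and 4 days, and over all 10 members 2 to 6 at 6 hours, 1 to 3 at 2 days and 3 to 5 between 6 hours and 5 days. The 4 at 1 day and the 2 at 4 days came without control replicate 1, the 2 at 6 hours without control replicate 5 or 6 hour replicate 3, the 6 without 6 hour replicate 1, and the 3 without 5 day replicate 4.

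The replicate numbers did not pair the mice: deviations of same-numbered mice correlated at -0.23 to 0.15. With the replicate number as a block, 3 of 29 calls were lost and 3 gained: Alas2 at 6 hours (0.51) and Cpox at 2 days (-0.57) and 3 days (-0.52) were lost, and Hbb-bs at 6 hours (0.40) and Hba-a1 and Hba-a2 at 1 day (0.62 and 0.65) gained. The block left 1 of 2 calls among the 5 tissue genes at 2 and 3 days, and 1 of 2 over all 10 members at 2 days.

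Fold changes turned sign as follows (log2). With library size only: Fth1 at 6 hours -0.14 and 4 days -0.046, Hbb-bs and Alas2 at 2 days -0.067 and -0.069, Alas2 at 3 days -0.00029, and at 5 days Hba-a1 -0.0013, Hba-a2 -0.029 and Fech -0.20. With Hbb-bs as covariate: Fth1 at 6 hours -0.16, 4 days -0.25 and 5 days -0.062, Alas2 at 1 day -0.038, 3 days -0.25, 4 days -0.20 and between 6 hours and 5 days -0.31, and Fech at 5 days -0.26. Without a filter: Fech at 2 days 0.0048 and Cpox at 5 days 0.0086. With 1 fit of all groups, Fech at 2 days was 0.00031. Leaving out 1 library, the ranges that crossed 0 were -0.034 to 0.16 for Fth1 at 6 hours; at 2 days -0.20 to 0.51 for Hba-a1, -0.24 to 0.56 for Hba-a2 and -0.063 to 0.060 for Fech; at 3 days -0.32 to 0.022 for Hba-a1, -0.39 to 0.0085 for Hba-a2, -0.045 to 0.27 for Alas2, -0.090 to 0.057 for Fech and -0.095 to 0.079 for Fth1; at 5 days -0.022 to 0.10 for Fech and -0.27 to 0.099 for Cpox; and between 6 hours and 5 days -0.15 to 0.10 for Hba-a1, -0.22 to 0.021 for Hba-a2 and -0.067 to 0.17 for Alas2.

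By the p of r, of the correlations with Hbb-bs those of Hba-a1, Hba-a2 and Fech passed within durations (0.460, 0.481 and 0.456), that of Alas1 turned to 0.317, and that of Fth1 no longer passed within durations (0.345), with library size only (0.361) or without its 2 most extreme mice (0.407). Without the 2 mice highest in Hba-a1, an alternative chosen after seeing the data, Hba-a1 and Hba-a2 passed at 0.455 and 0.469.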
